A study of Mus musculus with 26 samples.

Results

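miR-151 is a microRNA whose hairpin precursor lies within Ptk2, the gene of focal adhesion kinase. It was followed here through both of its mature arms, mmu-miR-151-3p and mmu-miR-151-5p. They were chosen by name, as 2 of the 1915 entries of a table of reads per mature miRNA, of which 1389 entries had at least 1 read and 605 were abundant enough to be tested. The choice was made with the genotype difference of miR-151-3p, the ratio of the arms and the standing of one wild type library already known, so these are given as a description, with no p. Both arms passed the filter on low counts and no other entry held the same counts as either.

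On GRCm38, which is mm10 under its other name, GENCODE annotates Mir151 as a 68-base hairpin gene at chr15:73254815-73254882 on the minus strand. Ptk2 spans chr15:73205102-73423280 on the same strand. Of its 15 annotated transcripts 5 extend across the hairpin and 0 have an exon over it, so the hairpin is intronic in each of them. The nearest exon upstream was 2152 bases away and the nearest downstream 12338 bases away.

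A miRNA hairpin is cut by Drosha and then Dicer into a duplex of a 5p and a 3p arm, and usually one of them is kept by an Argonaute protein while the other is degraded. An intronic miRNA such as miR-151 is made from the transcript of its host, and Ptk2 encodes a kinase that couples integrins to the cytoskeleton and acts in the growth of axons and dendrites. The miR-151 precursor is known as one that ADAR enzymes edit in brain, where editing hinders its cutting by Dicer. miR-151 is counted with miR-28 and miR-708 to the mir-28 family, hairpins that derive from LINE-2 repeats.

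Small RNA was sequenced from hippocampal CA1, a field needed for memory, of mice that were 3 months old. The transgenic CamkdeltaC mice are a heart failure model with extra calcium/calmodulin kinase II delta; nothing used here names the transgene's promoter. The groups were 9 libraries of wild type littermates on vehicle, 7 of transgenic mice on vehicle and 10 of transgenic mice given Vorinostat, a histone deacetylase inhibitor. Vehicle or drug was in the drinking water for 4 weeks, starting at 2 months, and animals of both sexes were used. Whether libraries stand for separate animals is not stated in the labels, so every p-value measures the spread between libraries, which may be technical.

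Library totals ran from 0.585 to 24.8 M counts (M, 1e6 counts). The shallowest was wild type vehicle replicate 1, followed by replicate 8 of the Vorinostat group with 3.89 M, and the remaining 24 libraries held at least 6.01 M. Wild type vehicle replicate 1 stood apart in many miRNAs: 140 of 605 (23.1%) lay above and 273 (45.1%) below all 25 other libraries. The summed level of 5 neuronal miRNAs (miR-124-3p, miR-128-3p, miR-9-5p, miR-138-5p and miR-137-3p) was 196078 CPM there (counts per 1e6 counts of the library's scaled total), against 307277 to 468610 CPM in the 25 others. Results that rest on this library are given with and without it. In bulk tissue, fewer cells of a type and less miRNA per cell cannot be told apart.

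The relatives of miR-151 carry several results further on, so their mature arms are shown first, with the seed (bases 2 to 8, the stretch that pairs with targets) in capitals. The sequences are RefSeq's for GRCm38.p6, matched by name for 5 of the 8 arms of the family; the others were miR-151-3p, miR-151-5p and miR-28c.
mmu-miR-28a-5p: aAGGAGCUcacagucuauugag
mmu-miR-708-5p: aAGGAGCUuacaaucuagcuggg
mmu-miR-28b: aGGAGCUCacaaucuauuuag
mmu-miR-28a-3p: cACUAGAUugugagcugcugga
mmu-miR-708-3p: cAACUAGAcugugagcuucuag
miR-28a-5p and miR-708-5p share the seed AGGAGCU, which 2 of the 1679 mature mouse sequences of the RefSeq table hold. The seeds of miR-28b, miR-28a-3p and miR-708-3p were each held by 1 sequence of that table.

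miR-151-3p was the abundant arm. Its level in wild type vehicle libraries ran from 1471 to 64595 CPM with a median of 1790. In transgenic vehicle libraries it ran from 1287 to 3916 CPM with a median of 1938, and with Vorinostat from 1703 to 11776 with a median of 2704. The 3 groups overlapped between 1703 and 3916 CPM, and the highest value, that of wild type vehicle replicate 1, lay apart from the rest. Without that library the wild type range ended at 4820 CPM, with a mean of 2813 ± 1572 (SD, n = 8), against 2567 ± 1270 (SD, n = 7) in transgenic vehicle and 4288 ± 3287 (SD, n = 10) with Vorinostat. Neighbouring means in this order lay closer together than the larger SD of each pair. Among the miRNAs of a library, miR-151-3p held a place between 18 and 55 in these 25 libraries and the fifth place in wild type vehicle replicate 1, where it took 5.305% of all counts.

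miR-151-5p was scarcer and, over all libraries, varied less (pooled SD within groups of 0.64 against 1.23 on the log2 scale of CPM). Its level ran from 183 to 631 CPM in wild type vehicle (median 383), from 315 to 1010 CPM in transgenic vehicle (median 551) and from 147 to 783 CPM with Vorinostat (median 449). The groups overlapped here as well. The lowest library was Vorinostat replicate 4, followed by wild type vehicle replicate 1, and the highest was transgenic vehicle replicate 5. The mean was 438 ± 151 CPM (SD, n = 9) in wild type vehicle, 572 ± 278 CPM (SD, n = 7) in transgenic vehicle and 432 ± 171 CPM (SD, n = 10) with Vorinostat. The order of the 3 group means was thus transgenic vehicle, wild type vehicle, Vorinostat, with each gap smaller than the SD of either group it separates.

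**Figure D1:**
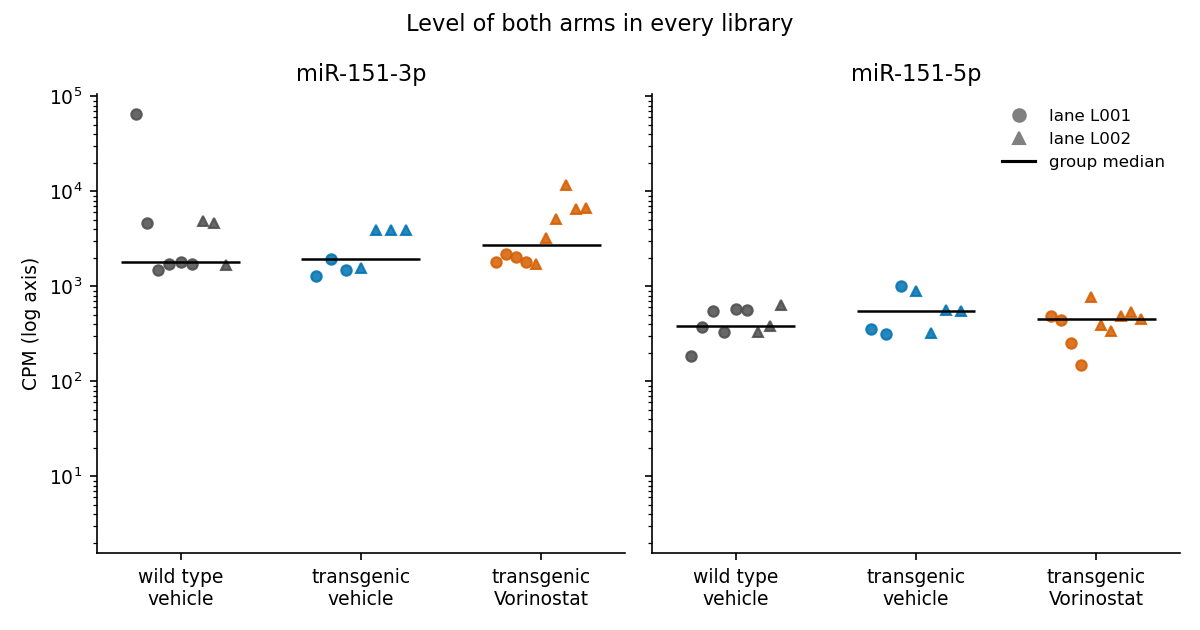
Level of miR-151-3p and miR-151-5p (CPM, log axis) in each of the 26 libraries by group; circles are lane L001, triangles lane L002 and bars the group medians. The 3p arm of wild type vehicle replicate 1, at 64595 CPM, lies far above the rest, and 3 transgenic vehicle libraries of lane L002 sit together between 3906 and 3916 CPM, above the other 4 of that group.

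The 3p levels were not spread evenly. On the log2 scale of CPM, 14 libraries lay between 10.33 and 11.11 and 10 between 11.64 and 12.72, with none in the gap. Vorinostat replicate 8 (13.52) and wild type vehicle replicate 1 (15.98) lay above both ranges. Each group was present in both: 5 wild type vehicle, 4 transgenic vehicle and 5 Vorinostat libraries were in the lower range, and 3, 3 and 4 in the upper one. The ranges were drawn after the values were seen and carry no test.

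The column headers of the count table name a sequencing lane, L001 or L002, and 11 of the 14 libraries in the lower range were from L001 while 9 of the 10 in the upper range were from L002. Within L001, without wild type vehicle replicate 1, miR-151-3p averaged 2275 ± 1355 CPM (SD, n = 5) in wild type vehicle, 1566 ± 335 CPM (SD, n = 3) in transgenic vehicle and 1967 ± 197 CPM (SD, n = 4) with Vorinostat. Within L002 the means were 3711 ± 1746 (SD, n = 3), 3318 ± 1182 (SD, n = 4) and 5836 ± 3499 CPM (SD, n = 6). For miR-151-5p the lanes gave 482 ± 118, 561 ± 389 and 334 ± 160 CPM in L001, in the same order and with the same n, and 448 ± 160, 581 ± 231 and 498 ± 156 CPM in L002. Without that library the 3p mean was higher in L002 in all 3 groups, while the 5p mean was lower there in wild type vehicle, nearly equal in transgenic vehicle and higher with Vorinostat. With it both wild type directions turned, since the L001 means became 12661 ± 25471 CPM for the 3p arm and 432 ± 162 CPM for the 5p arm (SD, n = 6). On the log2 scale the SD of the 5p arm in L001 exceeded that of the 3p arm in transgenic vehicle (0.92 against 0.30) and with Vorinostat (0.80 against 0.14). It was the smaller in wild type vehicle there and in all 3 groups of L002. The difference between lanes was not tested, and within a group the lanes hold different replicate numbers.

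The arms were compared within each library as the share of miR-151 reads that came from the 3p arm, a ratio that needs no scaling between libraries. The 3p arm had more reads than the 5p arm in 26 of 26 libraries. In wild type vehicle the share ran from 72.9% to 93.6% with a median of 79.6% when replicate 1, at 99.7%, was set aside. In transgenic vehicle it ran from 59.3% to 92.3% with a median of 86.0%, and with Vorinostat from 68.5% to 96.1% with a median of 90.7%. The groups overlapped between 72.9% and 92.3%, with means of 82.3% ± 9.36 (SD, n = 8), 79.2% ± 12.9 (SD, n = 7) and 87.7% ± 8.58 (SD, n = 10). With replicate 1 the wild type mean was 84.2% ± 10.5 (SD, n = 9).

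Counting error was small beside this spread. The widest 95% interval of a share (exact Clopper-Pearson) was 1.5 percentage points across outside wild type vehicle replicate 1. Such intervals cover counting error only, since reads without molecular identifiers are not independent molecules. Expressed as a ratio, the lowest value was 1.46 reads of the 3p arm per read of the 5p arm, in transgenic vehicle replicate 5 (11169 against 7657 reads). The highest outside wild type vehicle replicate 1 was 24.3, in Vorinostat replicate 8 (37035 against 1521 reads). On the log2 scale the ratio averaged 2.44 ± 1.09 in wild type vehicle without replicate 1 (SD, n = 8) and 3.11 ± 2.25 with it (SD, n = 9). It averaged 2.15 ± 1.13 in transgenic vehicle (SD, n = 7) and 3.10 ± 1.06 with Vorinostat (SD, n = 10). The differences between the means of all libraries, -0.96 for transgenic against wild type vehicle and 0.95 for Vorinostat against transgenic vehicle, were smaller than the pooled SD within groups of 1.58. Without wild type vehicle replicate 1 the genotype difference was -0.29, with a pooled SD of 1.09. On the authors' values, described further on, the same differences were -2.38 and 2.51, larger than the pooled SD of 1.22 on that scale. The wild type mean there was 3.07 ± 1.80 (SD, n = 9), and 2.53 ± 0.82 without replicate 1 (SD, n = 8), against 0.69 ± 0.72 in transgenic vehicle (SD, n = 7). On the counts of all libraries the median of transgenic vehicle lay 0.25 above that of wild type vehicle, where its mean lay below.

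**Figure D2:**
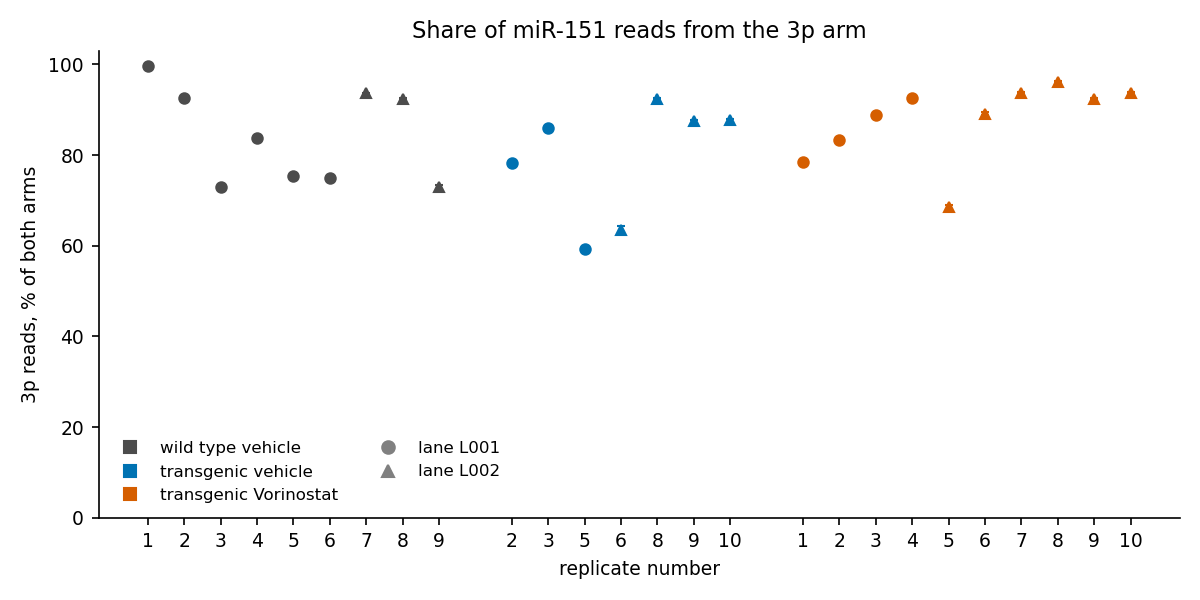
Share of miR-151 reads from the 3p arm (% of the reads of both arms) in each library, by group and replicate number; bars are exact 95% intervals, mostly smaller than the symbols. The shares run from 59.3% to 99.7% and the 3 groups overlap.

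In wild type vehicle replicate 1 the arms parted further than anywhere else. It held 31044 reads of miR-151-3p and 88 of miR-151-5p, a ratio of 353 and a 3p share of 99.7% (exact 95% interval 99.65% to 99.77%). The 3p level was 4.98 above the median of the other 25 libraries on the log2 scale, or 31.6-fold, the first of all 605 tested miRNAs in upward departure. The 5p level departed by -1.31 from its own median and was still above that of Vorinostat replicate 4. A high arm ratio in that library was not peculiar to miR-151: of 167 hairpins with both arms tested, 53 (31.7%) had their highest ratio of 3p to 5p reads there and 50 (29.9%) their lowest. The departure of the miR-151 ratio, 5.66 on the log2 scale, was the fifth in size among the 167. The first 3 were miR-664 (-7.88), miR-671 (5.94) and miR-137 (-5.93), whose scarcer arms had 0, 0 and 2 reads there, with 0.5 reads added to each arm.

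Of 8 marker lists for cell types and regions, 5 summed to a level outside that of the other 25 libraries in that library, the neuronal one among them. The sum of miR-182-5p, miR-183-5p and miR-96-5p, which mark sensory tissue and thalamus, was 1330 CPM in it, against 50.8 to 205 CPM in the other wild type libraries, 59.99 to 140 in transgenic vehicle and 96.4 to 511 with Vorinostat. The 3 erythrocyte miRNAs (miR-451a, miR-144-3p and miR-486a-5p) summed to 2033 CPM against 516 to 699, 563 to 877 and 583 to 1228, with miR-144-3p having no read. The 4 microglia and leukocyte miRNAs (miR-142a-3p, miR-142a-5p, miR-223-3p and miR-150-5p) summed to 8.32 CPM against 73.7 to 157, 71.3 to 147 and 59.1 to 141, with no read of miR-142a-3p or miR-223-3p. The choroid plexus list (5 miRNAs) was at 379 CPM, against 449 to 783 in the 25 others. The hindbrain and spinal cord list (95.7 CPM, with no read of miR-196a-5p or miR-196b-5p), the endothelium and vessel wall list (9041 CPM) and the oligodendrocyte list (1592 CPM, with no read of miR-219a-5p) lay within the range of the others. In Vorinostat replicate 8, the next highest in miR-151-3p, the sensory and thalamic sum (511 CPM), the endothelial sum (22636) and the hindbrain sum (156) were the highest of these 25 libraries and the microglial sum (59.1) the lowest. The part of these markers, or of depth, in the miR-151 values was not tested.

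The genotype comparison set transgenic vehicle against wild type vehicle. With all 26 libraries the mean of miR-151-3p was 2567 CPM against 9678 ± 20646 CPM (SD, n = 9), an edgeR log2 difference of -1.91 (SE 0.73), and 0 of 7 transgenic libraries reached the wild type mean. Against the wild type mean without replicate 1, 2813 CPM, 3 of 7 lay above. The members were chosen with this contrast known, so no p is given; edgeR called 0 of 605 miRNAs (0%) in it and 13 (2.15%) at an unadjusted p under 0.05, DESeq2 0 and 18 (2.98%), and limma voom 0 and 7 (1.16%). Without wild type vehicle replicate 1 the difference was -0.14 (SE 0.42), and within lane L002, which lacks that library, it was -0.17 (SE 0.54). DESeq2, which replaced the 31044 reads of that library by 1292 as an outlying count, gave -0.12 (SE 0.38). miR-151-5p differed by 0.38 (SE 0.29), with 4 of 7 transgenic libraries above the wild type mean, and by 0.36 in each lane. Without transgenic vehicle replicate 5 the difference was 0.18 (SE 0.30), without replicate 6 of that group 0.25 (SE 0.32), and with the replicate number as a block for all libraries 0.070 (SE 0.26).

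Vorinostat was compared with vehicle in transgenic mice, which had been assigned to either at random. In the model of all groups, miR-151-3p was at 4288 against 2567 CPM, a log2 difference of 0.74 (SE 0.69, edgeR adjusted p = 0.836). Of the 10 treated libraries 5 lay above the vehicle mean, and without Vorinostat replicate 8, the highest of them, the difference was 0.43 (SE 0.68). Wild type vehicle replicate 1 enters this SE, since the groups share 1 estimate of the spread. Without that library the 3p difference was 0.71 (SE 0.40, edgeR adjusted p = 0.738). DESeq2, which replaced its 3p count, gave 0.64 (SE 0.37, DESeq2 adjusted p = 0.781). miR-151-5p was at 432 against 572 CPM, a difference of -0.40 (SE 0.29, edgeR adjusted p = 0.836), and 1 of 10 lay above the vehicle mean. Without transgenic vehicle replicate 5, the highest in the 5p arm, the difference was -0.20 (SE 0.29). Neither arm passed, as did none of the 605 miRNAs in edgeR (0%; 21 or 3.47% at an unadjusted p under 0.05), DESeq2 (26 or 4.30% unadjusted) or limma voom (16 or 2.64% unadjusted). The 3p difference was 0.29 (SE 1.08) within L001 and 0.79 (SE 0.47) within L002, and the 5p difference -0.76 (SE 0.53) and -0.23 (SE 0.30).

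The transgenic libraries of both treatments share 7 replicate numbers, and libraries with the same number deviated together from their group means in all 7 cases, so they were also compared as pairs. The r of these deviations averaged 0.43 for the same number and -0.04 for other numbers, of which 28 of 63 exceeded 0.1 as well. The differences within pairs, and the fit of the same libraries without the block, were added after seeing the data. The differences within pairs are therefore a description without a p. The libraries of pair 5 came from different lanes and those of each other pair from 1 lane, so the check does not separate number from lane. miR-151-3p was higher with Vorinostat in 7 of 7 pairs, by 0.78, 0.08, 0.21, 1.05, 1.59, 0.74 and 0.79 on the log2 CPM scale for replicates 2, 3, 5, 6, 8, 9 and 10. The mean was 0.75 (SD 0.51, n = 7 pairs). The pair with Vorinostat replicate 8 gave the largest value, and without it the mean was 0.61 (n = 6 pairs). Of all 605 miRNAs 46 (7.60%) were higher in all 7 pairs and 29 (4.79%) lower in all 7.

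Adjusted over all miRNAs, the paired difference of miR-151-3p did not pass. With the pair as a block over these 14 libraries edgeR gave 0.74 (SE 0.16, adjusted p = 0.0533), against 0.92 (SE 0.45, adjusted p = 0.642) for the same libraries without the block. The block called 5 of 567 miRNAs (0.882%), with 147 (25.9%) at an unadjusted p under 0.05, where the fit without it called 0 (0%) and had 31 (5.47%) unadjusted. The 5 were miR-379-5p, miR-129-5p and miR-182-5p as higher (0.529%) and miR-339-5p and miR-29c-3p as lower (0.353%). miR-151-5p was higher in 2 and lower in 5 pairs, from -1.17 (pair 6) to 0.57 (pair 8), with a mean of -0.19 (SD 0.56). With the block the 5p difference was -0.19 (SE 0.18, edgeR adjusted p = 0.531). The log2 ratio of 3p to 5p reads was higher with Vorinostat in 7 of 7 pairs, by 0.38 to 2.22 with a mean of 0.93 (SD 0.63, n = 7 pairs). How many other hairpins did the same was not counted, so this is not shown to be particular to miR-151. No p is given for the ratio, since it was part of how the members were chosen.

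**Figure D3:**
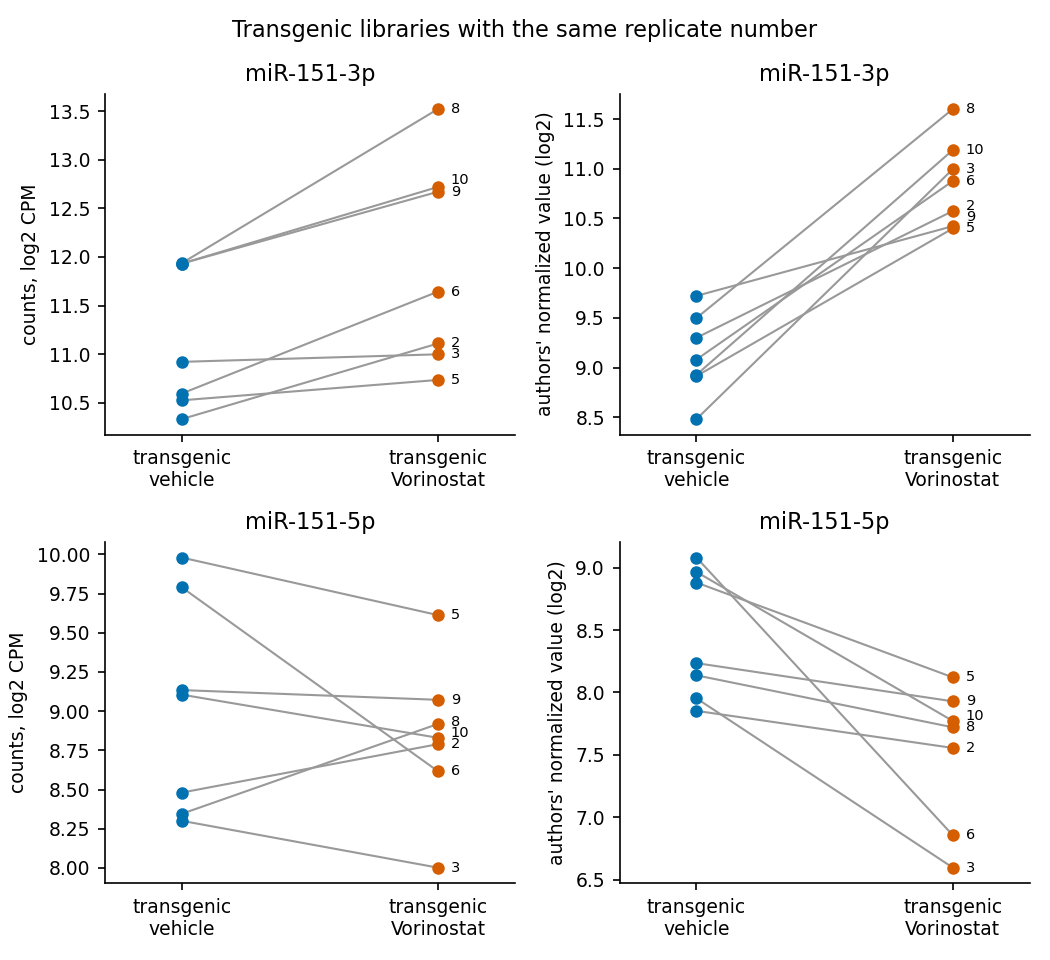
Both arms in the 7 transgenic vehicle and 7 Vorinostat libraries that share a replicate number (printed at the right, in the order of the points), as log2 CPM of the counts (left column) and as the authors' normalized log2 values (right column); lines join the same number. miR-151-3p is higher with Vorinostat in every pair on both scales, and miR-151-5p is lower in 5 pairs on the counts and in 7 on the authors' values.

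The authors' own normalized log2 values, deposited for 674 miRNAs, separated the transgenic groups more widely. miR-151-3p ran from 8.48 to 9.72 in transgenic vehicle (median 9.08) and from 9.85 to 11.60 with Vorinostat (median 10.50), so these groups did not overlap. Wild type vehicle ran from 9.29 to 13.73 (median 10.36) and overlapped both. Of the 674 miRNAs 25 (3.71%) had all Vorinostat values above all transgenic vehicle values and 67 (9.94%) all below, where on log2 CPM 0 of 605 did in either direction. miR-151-5p ran from 7.85 to 9.08 in transgenic vehicle (median 8.23) and from 6.14 to 8.12 with Vorinostat (median 7.64), which overlap.

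limma on these values gave a Vorinostat difference of 1.45 for miR-151-3p (SE 0.39, adjusted p = 0.00458) and of -1.06 for miR-151-5p (SE 0.29, adjusted p = 0.00471). Both passed, and so did 360 of the 674 miRNAs (53.4%), 111 higher (16.5%) and 249 lower (36.9%), so a call on these values is shared with most of the table. Within the 7 pairs the 3p arm differed by 0.70 to 2.52 with a mean of 1.73 (SD 0.63), and the 5p arm by -2.23 to -0.30 with a mean of -0.94 (SD 0.71). On this scale 99 (14.7%) were higher and 248 (36.8%) lower in all 7 pairs. In the genotype comparison the authors' values gave -1.55 (SE 0.40) for the 3p arm and 0.83 (SE 0.29) for the 5p arm, with 366 miRNAs (54.3%) called. No label or header used here says how these values were made, and why they differ from CPM was not tested.

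The last comparison set Vorinostat against wild type vehicle, and it shares libraries with both others. miR-151-3p differed by -1.17 (SE 0.63, edgeR adjusted p = 0.9997) with all libraries and by 0.57 (SE 0.39) without wild type vehicle replicate 1, which turned its direction. Of the 10 treated libraries 1 lay above the wild type mean of all libraries and 5 above that without replicate 1. miR-151-5p differed by -0.02 (SE 0.27, edgeR adjusted p = 0.9997). In this contrast edgeR called 0 of 605 miRNAs (0%), with 19 (3.14%) at an unadjusted p under 0.05, DESeq2 0 with 29 (4.79%) and limma voom 0 with 23 (3.80%). On the authors' values limma called 6 of 674 (0.890%) and neither arm passed, with differences of -0.10 (SE 0.37, adjusted p = 0.967) for the 3p and -0.23 (SE 0.27, adjusted p = 0.860) for the 5p arm.

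The arms of miR-151 did not follow each other across libraries. Over 26 libraries Pearson's r of their log2 CPM was -0.38 and Spearman's rho -0.43. These values are a description without a p, since the ratio of the arms, formed from the same reads, was known at the choice. Without wild type vehicle replicate 1 alone r was -0.15, and leaving out replicate 8 of the Vorinostat group as well gave -0.19. Spearman's rho moved less. It was -0.37 in the first of these sets and -0.40 in the second. Without the 2 libraries farthest from the median of miR-151-5p, wild type vehicle replicate 1 and Vorinostat replicate 4, r was -0.28 and rho -0.40. Within the 14 libraries of the lower 3p range r was -0.39 and within the 10 of the upper range 0.13. By lane r was -0.47 in L001 (n = 13), -0.21 there without wild type vehicle replicate 1 (n = 12), and -0.58 in L002 (n = 13). In L002 without replicate 8 of the Vorinostat group r was -0.70 (n = 12).

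Other miRNAs followed miR-151-3p closely. The Pearson r of log2 CPM was used as the measure of likeness, and it is a description without a p, since all values of a library share its depth and scaling. Over 26 libraries the most alike were miR-1964-3p (0.99), miR-671-3p (0.99) and miR-1981-5p (0.98). Over 24 libraries, leaving out wild type vehicle replicate 1 and replicate 8 of the Vorinostat group, they were miR-1964-3p (0.99), miR-5099 (0.98) and miR-674-3p (0.98). The most opposite in these 24 were miR-107-3p, miR-369-3p (-0.98 each) and miR-23a-3p (-0.97), and over all 26 miR-30c-5p, at -0.99. In the 24 libraries 31 of 604 miRNAs (5.13%) had an r above 0.9 and 37 (6.13%) one below -0.9. Such numbers were counted only for the arms of miR-151, so they are not shown to be particular to miR-151-3p.

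The miRNAs named above were picked over these same libraries, so their r within ranges and lanes describes the likeness and is no further support for it. The 5 most alike miRNAs named above had an r of 0.66 to 0.92 in the 14 libraries of the lower range and of 0.88 to 0.97 in the 10 of the upper one. For miR-1964-3p r was 0.92 and 0.93 in these ranges, and 0.98 in L001 and 0.99 in L002 (12 of the 24 libraries each). In L001 11 libraries were in the lower range and 1 in the upper, so an r there leans on that 1 library. miR-107-3p gave -0.78 and -0.97 in the ranges and -0.94 and -0.99 in the lanes. In wild type vehicle replicate 1 miR-1964-3p reached 608 CPM, against 21.9 to 189 CPM in the 25 others, and miR-107-3p was at 24.97 CPM against 57.9 to 362.

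miR-151-5p had no such followers: 0 of 604 miRNAs had an r above 0.9 or below -0.9. Its most alike were miR-181c-5p (0.85), miR-29b-3p (0.81) and let-7d-3p (0.73) over 26 libraries, and miR-376a-3p (0.83), miR-92b-3p (0.82) and miR-181c-5p (0.82) over 24. No miRNA stood among the first 3 for both arms.

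**Figure D4:**
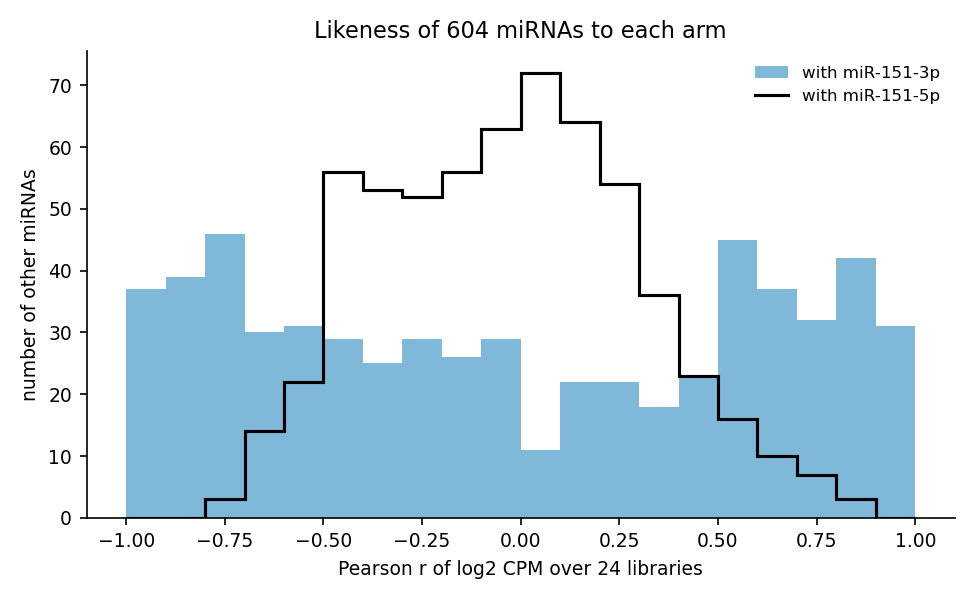
Number of the 604 other tested miRNAs by their Pearson r with miR-151-3p (filled) and with miR-151-5p (line), over the same 24 libraries. With the 3p arm 31 miRNAs exceed 0.9 and 37 fall below -0.9, and with the 5p arm 0 do either.

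The miRNAs that moved with and against miR-151-3p differed in base composition. A pair of the most alike and a pair of the most opposite are shown with G and C in capitals, again from RefSeq for GRCm38.p6.
mmu-miR-1964-3p: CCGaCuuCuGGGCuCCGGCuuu
mmu-miR-674-3p: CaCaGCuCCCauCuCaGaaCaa
mmu-miR-107-3p: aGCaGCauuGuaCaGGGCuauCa
mmu-miR-369-3p: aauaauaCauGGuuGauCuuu
G and C make up 63.6% of miR-1964-3p and 23.8% of miR-369-3p, while miR-674-3p (50.0%) and miR-107-3p (47.8%) lie close together. Over the whole sets, the 28 of 31 miRNAs with an r above 0.9 that had a sequence averaged 56.1% ± 8.54 (SD), and the 32 of 37 with an r below -0.9 averaged 42.8% ± 9.46 (SD). The mean of all 515 of 604 miRNAs with a sequence was 49.7% ± 10.2 (SD). The sets overlapped, from 40.9% to 72.7% and from 23.8% to 65.2%. Arms named 3p made up 14 of the 31, 19 of the 37 and 298 of the 604. The part of base composition in the miR-151-3p values was not tested.

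Among the relatives, both arms of miR-708, a hairpin of a Tenm4 intron, tracked miR-151-3p in opposite directions. miR-708-3p (chr7:96249496-96249517) ran from 787 to 6022 CPM in the 25 libraries other than wild type vehicle replicate 1, where it was at 12574 CPM. Its r with miR-151-3p was 0.97 over 26 and over 24 libraries. miR-708-5p (chr7:96249450-96249472) ran from 36.7 to 203 CPM in the 25 libraries and was at 20.8 CPM in wild type vehicle replicate 1, with an r of -0.94 over 26 and -0.97 over 24 libraries. The 3p share of miR-708 averaged 92.2% ± 5.16 in wild type vehicle without replicate 1 (SD, n = 8), 90.4% ± 7.14 in transgenic vehicle (SD, n = 7) and 94.4% ± 4.25 with Vorinostat (SD, n = 10), and was 99.8% in wild type vehicle replicate 1.

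**Figure D5:**
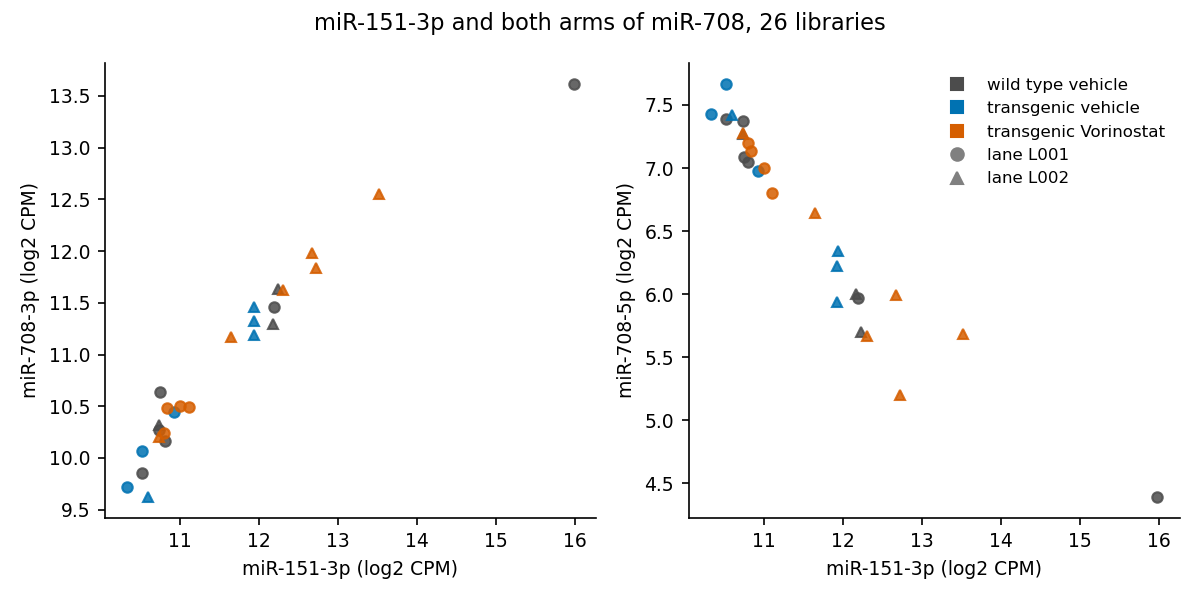
log2 CPM of miR-708-3p (left) and miR-708-5p (right) against that of miR-151-3p in the 26 libraries, coloured by group and shaped by lane. miR-708-3p rises with miR-151-3p (r 0.97) and miR-708-5p falls (r -0.94), and wild type vehicle replicate 1 is the point at the far right of both panels.

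miR-28a, from an intron of Lpp, behaved otherwise. miR-28a-3p (chr16:24827908-24827929) had an r of 0.93 with miR-151-3p over 26 libraries and 0.81 over 24, but 0.25 and 0.55 within the ranges of 14 and 10 libraries. miR-28a-5p (chr16:24827868-24827889) had 0.10 over 26 and 0.83 over 24 libraries, and -0.0067 in the lower and 0.75 in the upper range. Its counts were nearly those of miR-28c (11045 and 11560 reads in all), so these entries may hold the same reads and are uncertain. The 3p share of miR-28a averaged 39.2%, 38.0% and 37.0% in the 3 groups, and 86.4% in wild type vehicle replicate 1. miR-28b had 60 reads in all libraries together and was not tested.

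None of the 5 tested relatives passed in edgeR in any comparison of the 3 groups, as did 0 of all 605 miRNAs. Their median log2 difference was 0.13 in the genotype comparison, 0.19 with Vorinostat against vehicle and -0.12 against wild type, where that of all 605 miRNAs was 0.03, -0.01 and 0.01. For Vorinostat, miR-708-3p differed by 0.62 (SE 0.48, edgeR adjusted p = 0.836) and miR-708-5p by -0.37 (SE 0.36, edgeR adjusted p = 0.836). A list of 8 miRNAs from other hairpins known to be edited in brain, which is what miR-151 is known for too, had medians of 0.08, 0.01 and 0.01. In the model of all groups 0 of its 8 tested members passed, as did 0 of 605. The paired block, with 5 calls among 567 miRNAs (0.882%), called miR-379-5p of this list and no mir-28 relative. Of that list miR-379-5p had an r of 0.95 with miR-151-3p over the 24 libraries and miR-381-3p 0.92, while miR-376c-3p had -0.79. The rest of the list lay between, from -0.52 (miR-376a-3p) to 0.75 (miR-99a-5p), so its members went in both directions. Edited reads were not analysed here.

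In the authors' deposited table of co-expression modules, whose memberships run from -1 to 1, the arms fell into different modules. The authors' deposited table puts miR-151-3p in the blue module of 197 miRNAs, with a membership of 0.949 in blue and -0.988 in turquoise, the lowest turquoise value of the 674. The authors' deposited table puts miR-151-5p in the turquoise module of 404 miRNAs, with 0.660 in turquoise and -0.708 in blue. miR-708-3p and miR-28a-3p were in blue, and miR-708-5p, miR-28a-5p and miR-28c in turquoise, in the authors' deposited table. These modules were built on the same libraries and are not independent of them.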

How the data were processed

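The members and lists were chosen with earlier results of these data known. Per the labels' protocols, libraries were made from CA1 RNA with the TruSeq Small RNA kit and read on a HiSeq2000 as single reads of 50 bases; FastQC 0.11.5 and the build mm10 appear in the submitters' processing notes. Nothing used here names the aligner, annotation or counting. The table of counts per mature miRNA is raw, as the authors deposited it. The authors also deposited normalized values on a log2 scale for 674 miRNAs, and a membership score per module with a p-value that was not used.

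Counts were tested here in edgeR 4.0.16 (quasi-likelihood test, R 4.3.3) with TMM factors, filterByExpr (minimum count 10, total 15), 3 group means and no covariate. The SE of an edgeR difference is its size divided by the square root of the F of that test. Tests were two-sided with Benjamini-Hochberg adjustment, and passing meant an adjusted p under 0.05. DESeq2 1.42.0, limma 3.58.1, other scalings and filters, lanes, a replicate block and left-out libraries were alternatives. CPM are counts per 1e6 of the TMM-scaled total; log2 CPM used a prior count of 2. Correlations are Pearson's r, or Spearman's rho where named, and are given without a p.

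Pairing was checked by the correlation of deviations from group means: same-numbered transgenic libraries gave 0.27 to 0.60 in 7 of 7 pairs. Transgenic libraries with other numbers gave -0.64 to 0.60, with 28 of 63 above 0.1. Against wild type vehicle, 4 of 6 (transgenic vehicle) and 6 of 9 (Vorinostat) exceeded 0.1, so those numbers were not taken to pair. The labels do not say what the numbers mark.

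Named miRNAs were the members, the mir-28 family, the 3 miRNAs most like each arm over 26 and over 24 libraries, the 3 hairpins whose arm ratio departed most in wild type vehicle replicate 1, miR-128-3p, and fixed cell type markers. The most opposite miRNAs, the differences within pairs and the 3p ranges were chosen after values were seen. Positions are from GENCODE M21 for GRCm38, and sequences from RefSeq for GRCm38.p6.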

Additional observations from a re-analysis of the deposited data

Results flagged for a closer look

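Dixon's gap ratio was computed for 15 sets of group values and exceeded its critical value in 3, all for wild type vehicle replicate 1 in its group of 9 libraries. By chance about 1 in 20 groups exceeds it. The standing of this library was known when miR-151 was chosen, so the ratios describe its distance and are no test of it. For the log2 CPM of miR-151-3p, 15.98 in that library, the gap to the nearest library took 0.686 of the group's range. For the log2 ratio of 3p to 5p reads, 8.46 in that library, it took 0.653. For the authors' normalized value of miR-151-3p, 13.73 in that library, it took 0.617. The critical value for 9 libraries is 0.493. The 3 flags concern the same library and largely the same reads, so they are not independent of each other.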

How the results depend on the processing

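The calls on counts stayed at 0 in each comparison under other scalings, filters, DESeq2, limma voom, lane settings and with each library left out. The authors' values gave 366 genotype calls, 360 for Vorinostat against vehicle and 6 against wild type. Leaving out the pair of shallowest libraries (wild type vehicle replicate 1 and replicate 8 of the Vorinostat group) made these 346, 388 and 18.

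The genotype difference of miR-151-3p was -0.12 in DESeq2, -0.50 in limma voom, -0.17 within L002 and -0.14 without both of these, and -2.05 to -0.14 with each library left out, the last without wild type vehicle replicate 1. On the authors' values it was -1.55, and -1.17 without both libraries. Against wild type with Vorinostat the miR-151-3p difference turned to 0.52 in DESeq2, 0.044 in limma voom, 0.63 within L002, 0.27 without both libraries and 0.17 on the authors' values without both, and ran from -1.48 to 0.57 with each library left out. miR-151-5p in that comparison was 0.13 within L002 and -0.16 to 0.046 with each library left out. DESeq2 replaced an outlying count; otherwise the cause was not tested.

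For Vorinostat against vehicle both arms kept their direction in all settings on counts (3p 0.41 without both libraries, 5p -0.15 with a replicate block over all libraries) and passed only on the authors' values (3p 1.45 and 1.34, 5p -1.06 and -1.10 without both libraries). The arms' correlation was -0.58 within L002 and -0.53 with library totals only.

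Blocking on the replicate number over the 7 transgenic pairs, Vorinostat calls rose from 0 to 5. A replicate block over all 26 libraries gave 0 calls in each comparison and miR-151-3p differences of -0.51 in the genotype comparison and 0.060 in that of Vorinostat with wild type; it also blocks wild type numbers, which did not pass the pairing check. With 88 reads, miR-151-5p in wild type vehicle replicate 1 is the value that depth limits most.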
